A study of Mus musculus with 39 samples.

Results

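Nuclear-encoded subunits of the respiratory chain were examined in RNA from sorted mouse astrocytes, across both brain regions and the 3 conditions of a social defeat experiment. The members were the rows of the gene count table that map in GENCODE M21 to protein-coding genes on autosomes or the X chromosome and whose symbols begin with Nduf plus a subunit letter and number, Sdha to Sdhd, Uqcr, Cox4 to Cox8, or Atp5. They numbered 85 rows of 55401 in all, with 84 distinct symbols because 2 rows carry the symbol Atp5o. By symbol, 37 rows belong to complex I, 4 to complex II, 8 to complex III, 18 to complex IV and 18 to complex V. Another 12 rows match the symbols but are not protein-coding genes on those chromosomes and were left out.

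The 39 libraries came from male mice, each library with its own mouse number. Of these, 22 are labelled NAc (7 control, 8 susceptible and 7 resilient) and 17 are labelled PFC (6 control, 6 susceptible and 5 resilient), the usual abbreviations of nucleus accumbens and prefrontal cortex. Odd numbers are PFC and even numbers NAc, and an odd number and the next even one, where both are present, share a condition. Whether such libraries came from the same mouse was not tested, and the main tests treated all libraries as separate mice. Susceptible and resilient mice had undergone chronic social defeat stress, which pairs the animal day after day with a larger attacking male, whereas control mice are labelled only as controls. No genotype, transgene, strain or age is given in the labels, and the treatment text describes fresh micropunches of NAc for all libraries, those labelled PFC included. Astrocytes were taken with magnetic beads against ACSA-2, an epitope of the sodium pump subunit encoded by Atp1b2, so other cells can remain in the sorted material. In bulk RNA of this kind, fewer cells of a type and less RNA per cell cannot be told apart.

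The respiratory chain passes electrons from NADH and succinate to oxygen and uses the proton gradient so formed to make ATP. Complex I oxidises NADH, complex II is the succinate dehydrogenase of the tricarboxylic acid cycle, complex III passes electrons to cytochrome c, complex IV reduces oxygen, and complex V is the ATP synthase. Complexes I, III, IV and V combine nuclear-encoded subunits with subunits made from mitochondrial DNA (mtDNA), while complex II is wholly nuclear. Astrocytes are known for strong glycolysis but also contain mitochondria, including in their fine processes. The symbol rule is not exact: Ndufa4 is counted with complex I although its protein is known as a subunit of complex IV, Cox7a2l is known as a supercomplex factor, and Ndufab1, Cyc1, Cycs, Atpif1 and Usmg5 fall outside it.

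Promoters of 4 members are shown because they span different roles: Uqcr11 and Atp5h had among the smallest p-values in NAc, Ndufa10 holds the full cyclic AMP response element, and Cox8b is the muscle-type isoform of a complex IV subunit. The bases run 5′ to 3′ on the gene's strand from 150 before to 30 after the RefSeq start in GRCm38.p6, and capitals mark matches to the motifs searched. The windows are chr10:80406792-80406971 for Uqcr11, chr11:115419890-115420069 for Atp5h, chr1:92473729-92473908 for Ndufa10 and chr7:140900417-140900596 for Cox8b, all on the minus strand.
Uqcr11: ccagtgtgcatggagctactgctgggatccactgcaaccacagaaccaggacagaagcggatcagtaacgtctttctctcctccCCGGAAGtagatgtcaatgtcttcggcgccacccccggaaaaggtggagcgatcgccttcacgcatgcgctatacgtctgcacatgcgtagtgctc
Atp5h: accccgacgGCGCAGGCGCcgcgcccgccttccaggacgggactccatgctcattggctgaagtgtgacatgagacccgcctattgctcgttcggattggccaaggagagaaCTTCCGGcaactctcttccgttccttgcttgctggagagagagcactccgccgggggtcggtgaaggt
Ndufa10: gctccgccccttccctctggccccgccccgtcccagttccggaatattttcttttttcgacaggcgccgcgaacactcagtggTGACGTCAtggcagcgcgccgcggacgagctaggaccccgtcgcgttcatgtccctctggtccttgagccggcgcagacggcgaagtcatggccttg
Cox8b: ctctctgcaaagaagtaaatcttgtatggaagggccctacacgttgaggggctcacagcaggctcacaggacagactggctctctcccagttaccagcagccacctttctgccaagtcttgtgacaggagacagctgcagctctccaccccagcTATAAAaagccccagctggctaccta
The capitals are CCGGAAG in Uqcr11, the core bound by ETS factors such as GABP, and in Atp5h the motif of NRF1 (GCGC, then A, any base and GCGC) followed by the ETS core on the opposite strand. Those in Ndufa10 are TGACGTCA, the palindromic element of the CREB family, and those in Cox8b are TATAAA.

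Promoter windows of 300 bases, 250 before and 50 after the start, were found in the RefSeq table for 66 of the 84 symbols. The motif of NRF1, a factor known for driving nuclear respiratory genes, was present on either strand in 16 of them (24.2%), against 4.60% of all 32851 promoters in the table. CCGGAAG was present in 15 (22.7%) against 8.86%, and AAGATGGCG, the motif of YY1, in 6 (9.09%) against 1.40%. TGACGTCA was found in 4 members (6.06%), namely Ndufa10, Ndufb2, Uqcrfs1 and Ndufa11, against 1.79% of all promoters. TATAAA was found in 7 members (10.6%) against 13.6%. None of these 5 motifs contains another. Each member was counted at 1 start, the one nearest its GENCODE 5′ end, whereas the table can hold several starts of a gene. The start used for Atp5g2, which holds the NRF1 motif, lay 1305 bases from that end. A match describes letters in a window and does not show binding.

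The counts cover whole gene spans, introns included, and much of each library lay evenly over the genome. This background was measured on 1479 olfactory, vomeronasal and trace-amine receptor genes, which astrocytes are not known to use: their mean was 0.410 FPKM, the deposited level per length of gene span scaled to library depth, where counts spread evenly over all spans would give 0.764. The resulting background share ranged from 13.4% to 81.1% of a library, with a median of 58.3%. Library totals ranged from 941450 to 37339379 counts. By group the background share was 53.2% ± 9.25 (SD, n = 7) in NAc control, 56.0% ± 7.95 (n = 8) in NAc susceptible and 64.6% ± 10.5 (n = 7) in NAc resilient. In PFC it was 50.5% ± 17.8 (n = 6) in control, 46.8% ± 18.1 (n = 6) in susceptible and 47.3% ± 23.8 (n = 5) in resilient. The 4 libraries under 30% were all PFC: control replicate 2, susceptible replicate 1, and resilient replicates 1 and 2. The main PFC sums and the medians of all members that include these libraries are also given without them. Some other values, such as PFC values with background subtracted and PFC medians by complex, are given only with them. Defining astrocyte markers such as Aldh1l1, Aqp4 and Slc1a2 had counts in every group, as had all markers of oligodendrocytes, microglia, neurons and vascular cells that were examined. Background alone gives counts to gene spans, so their presence does not show which cells were in the material.

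Respiratory chain members stood above this background more often than protein-coding genes at large. A mean of at least 2 times the background was reached by 73 of the 85 rows (85.9%), against 37.1% of all protein-coding genes outside mtDNA, on any chromosome. Their median level was 1.35 FPKM, against 0.714 FPKM. Their spans were also shorter, with a median of 7284 bases against 17515.5, so exons fill more of each span. Counts were present in all 39 libraries for 75 members.

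Complex V held the highest members per length of span. Atp5b, which encodes the catalytic beta subunit, averaged 6.30 FPKM over all libraries, or 15.4 times background. Atp5a1, the alpha subunit, averaged 5.51 FPKM, and Atp5k, a small membrane subunit with named pseudogenes that could share its reads, 5.19 FPKM. At the other end, Atp5s, which is not a core subunit, averaged 0.566 FPKM, 1.38 times background, and only the long Atp5o row was lower, at 0.523 FPKM. The 3 genes for the identical c-ring subunit averaged 2.69 FPKM (Atp5g3), 1.11 (Atp5g2) and 0.978 (Atp5g1) over their spans. The order depended on the length used: with background subtracted and per kilobase of exon, Atp5g2 stood at 3.95 CPM, Atp5g3 at 3.01 and Atp5g1 at 0.788. That measure divides counts of the whole span, introns included, by exon length alone, so counts from introns raise it.

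In complex I, the accessory subunit gene Ndufb10 was highest at 4.42 FPKM. Ndufv1, which encodes the NADH-binding core subunit, averaged 2.88 FPKM, and the X-linked accessory subunit gene Ndufb11 2.63 FPKM. Ndufa1, also on the X chromosome, was lowest at 0.552 FPKM. Ndufs4, whose loss causes the best-known mouse model of complex I disease, averaged 0.705 FPKM, 1.72 times background over its 100464-base span. Only 2.70% of that span is exonic, and with background subtracted Ndufs4 held 29.7 CPM, or 11.0 CPM per kilobase of exon. The hypoxia-inducible paralogue Ndufa4l2 averaged 1.78 FPKM, against 1.06 FPKM for Ndufa4, but per kilobase of exon with background subtracted the order turned, at 2.75 CPM against 3.38.

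All members of complexes II and III exceeded 2 times background. Sdha, the flavoprotein subunit, averaged 1.82 FPKM, the iron-sulfur subunit gene Sdhb 1.42, and the membrane anchors Sdhd and Sdhc 1.36 and 0.953. In complex III, Uqcrq averaged 2.27, Uqcr10 2.01 and Uqcrb 1.99 FPKM, and the core protein gene Uqcrc2 was lowest at 1.08 FPKM. The medians by complex were 1.15 FPKM for complex I, 1.39 for II, 1.89 for III, 1.06 for IV and 1.65 for V.

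Complex IV contains isoforms known from different tissues, some of which lay apart and others close together. The general isoform gene Cox8a averaged 5.11 FPKM, whereas the muscle-type Cox8b averaged 0.847 and the testis-type Cox8c 0.757. The general Cox6a1 averaged 2.06 FPKM and the muscle-type Cox6a2 0.557, only 1.36 times background. Cox7a2, found in most tissues, averaged 1.35 FPKM and the muscle-type Cox7a1 0.792. The testis-type Cox6b2 averaged 0.961 FPKM, beside the general Cox6b1 at 1.08, over spans of 1303 and 9291 bases. Per kilobase of exon with background subtracted they lay far apart, at 0.649 and 8.74 CPM. Cox7b2 was lowest at 0.508 FPKM, against 1.41 for Cox7b. Cox4i2, the lung-type isoform also known in pericytes, averaged 1.04 FPKM beside 1.29 for Cox4i1, whose span is fully covered by another annotated gene. Per kilobase of exon with background subtracted that order turned, at 8.69 CPM against 3.42.

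**Figure D1:**
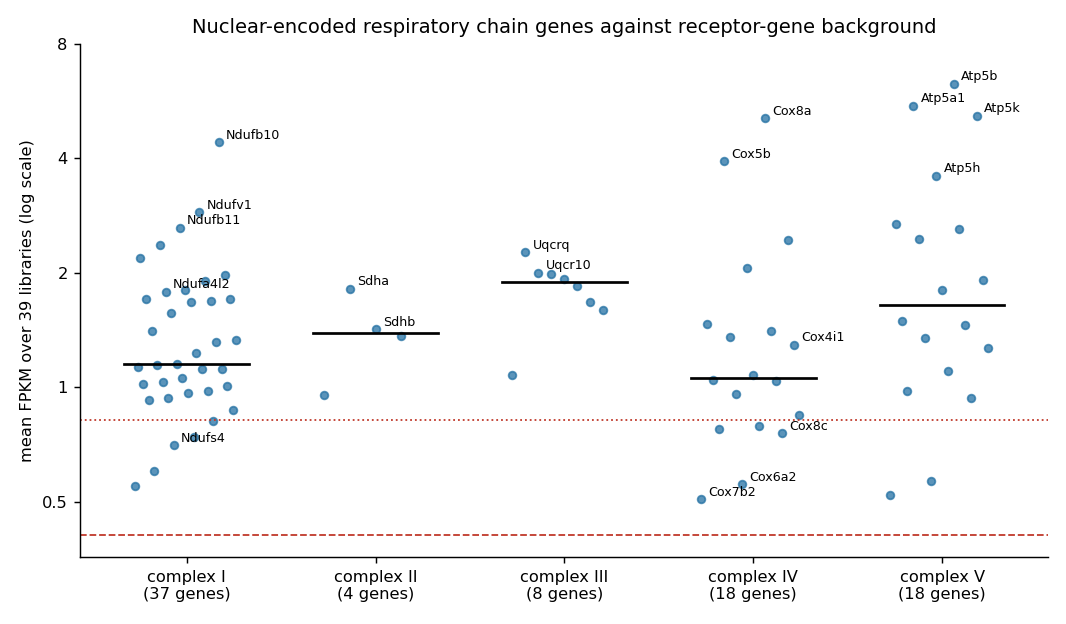
Mean FPKM over 39 libraries (log scale) of each member, by complex; the black bar is the median of the complex, the dashed line the mean background of 0.410 FPKM and the dotted line 2 times it. Atp5b is highest at 6.30 FPKM and Cox7b2 lies near the background at 0.508 FPKM.

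In 7 members another annotated gene covers at least 50% of the span, so the counts of Ndufa13, Cox4i1, Cox6a2, Ndufb9, Ndufb8 and both Atp5o rows are uncertain. The strand setting of the counting is not given in the sources used here. Uqcrh, Atp5k, Atp5c1 and Atp5l have named pseudogenes, which makes their counts uncertain too.

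Summed CPM of the members, counts scaled to a common library total, overlapped among all 6 groups. In NAc the sum was 1365 ± 189 CPM in control (n = 7), 1300 ± 166 in susceptible (n = 8) and 1172 ± 228 in resilient (n = 7). In PFC it was 1330 ± 238 in control (n = 6), 1510 ± 406 in susceptible (n = 6) and 1443 ± 519 in resilient (n = 5). Control libraries of NAc ranged from 1180 to 1615 CPM with a median of 1235, susceptible ones from 1138 to 1606 with a median of 1241, and resilient ones from 985.8 to 1631 with a median of 1079. PFC control libraries ranged from 1048 to 1634 CPM with a median of 1270, and susceptible ones from 1000.3 to 2138 with a median of 1471. The 5 PFC resilient libraries, replicates 1 to 5, held 1614, 2281, 1103, 1053 and 1166 CPM. Each group's range overlapped every other. No test was run on these sums.

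The sums of the 5 complexes had the same order of groups within NAc, with control above susceptible above resilient. Complex I held 539 ± 68.7 CPM in NAc control, 513 ± 56.0 in susceptible and 470 ± 79.0 in resilient. Complex V held 436 ± 70.7, 414 ± 68.7 and 360 ± 84.1 CPM in the same order, and complex II 112 ± 13.8, 105 ± 15.1 and 95.4 ± 23.5. Complex III held 101 ± 21.4, 92.3 ± 17.5 and 81.6 ± 28.5 CPM, and complex IV, with the smallest step, 177 ± 28.2, 176 ± 11.2 and 166 ± 21.1. In PFC, complex I held 517 ± 65.9 CPM in control, 572 ± 128 in susceptible and 553 ± 160 in resilient. Complex V held 428 ± 105, 500.2 ± 158 and 463 ± 211 CPM there, complex III 101 ± 24.6, 119 ± 46.8 and 117 ± 59.4, and complex IV 176 ± 20.0, 201 ± 41.4 and 190 ± 39.3. Complex II was highest in PFC resilient at 121 ± 52.4 CPM, beside 117 ± 36.5 in susceptible and 108 ± 24.6 in control. The lowest and highest libraries of a group overlapped those of every other group in each complex.

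**Figure D2:**
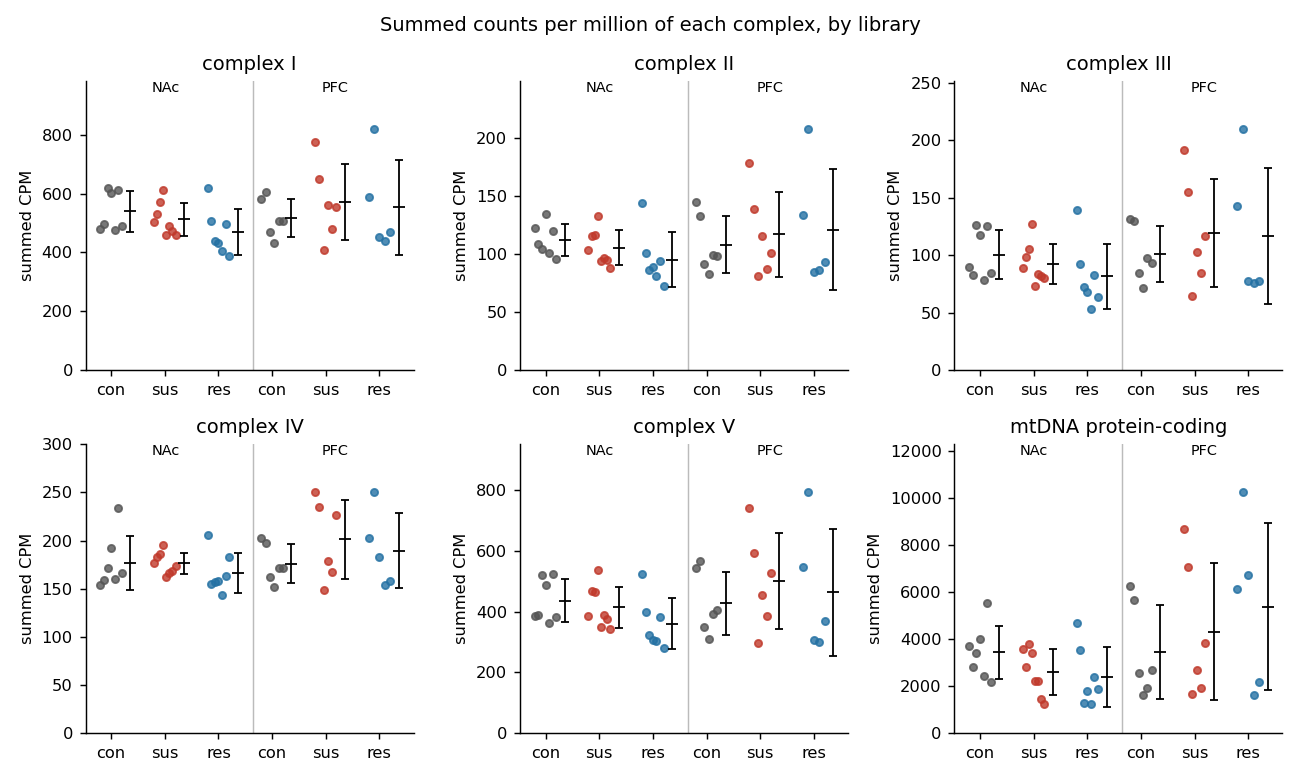
Summed CPM of complexes I to V and of the 13 mtDNA protein-coding genes, 1 point per library; con, sus and res are control, susceptible and resilient, and the bar beside each group is the mean ± SD. In complex I the groups range from 387 to 819 CPM and overlap throughout, and the highest PFC points are susceptible replicate 1 and resilient replicate 2.

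The level of single members showed the same libraries at the extremes. Cox8a ranged from 3.21 to 8.89 FPKM in NAc control with a median of 4.33, from 2.75 to 7.31 in susceptible with a median of 3.87, and from 1.98 to 8.62 in resilient with a median of 2.57. In PFC it ranged from 2.33 to 9.79 FPKM in control with a median of 4.06, and from 1.61 to 12.9 in susceptible with a median of 5.30. The 5 PFC resilient replicates held 9.43, 10.8, 5.57, 2.32 and 3.51 FPKM. Its highest values in the stressed groups came from NAc susceptible replicate 4, NAc resilient replicate 1, PFC susceptible replicate 1 and PFC resilient replicate 2, and all 6 groups overlapped.

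Sdhb had a narrower range and lay between 0.945 and 1.70 FPKM in NAc control with a median of 1.33. It lay between 1.22 and 1.80 FPKM in NAc susceptible with a median of 1.39, and between 0.845 and 1.69 in NAc resilient with a median of 1.09. The PFC resilient replicates held 1.63, 2.78, 1.25, 1.21 and 1.21 FPKM, and replicate 2 was again the highest. Cox4i2 followed that pattern only in part: its PFC resilient replicates held 0.954, 1.18, 0.918, 1.13 and 0.874 FPKM, with replicate 2 still the highest. In FPKM, PFC susceptible replicate 1 and NAc resilient replicate 1 were the lowest of their groups for this gene. In CPM scaled by TMM, Cox4i2 was instead lowest in PFC susceptible replicate 3, at 10.7 beside 14.0 in replicate 1. Its group means ran from 0.928 ± 0.142 FPKM (SD, n = 7) in NAc control to 1.17 ± 0.172 (n = 6) in PFC susceptible. By comparison Cox4i1 ran from 0.265 to 1.95 FPKM in NAc resilient and held 1.71, 2.78, 1.67, 0.698 and 0.721 in the PFC resilient replicates.

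The member sum moved with the background share of a library. The 4 libraries under 30% background held 2138, 2281, 1634 and 1614 CPM, in the order susceptible replicate 1, resilient replicate 2, control replicate 2 and resilient replicate 1 of PFC. The library with the most background, NAc resilient replicate 7 at 81.1%, held 987 CPM. With the background cover of each span subtracted, the members held 878 ± 247 CPM in NAc control, 787 ± 237 in susceptible and 581 ± 311 in resilient. The same sums in PFC were 868 ± 397, 1081 ± 566 and 1010 ± 724 CPM. Without the 4 libraries under 30% background, the PFC member sum was 1270 ± 208 CPM in control (n = 5), 1384 ± 296 in susceptible (n = 5) and 1107 ± 56.5 in resilient (n = 3). Complex I then held 499 ± 54.8, 531 ± 91.1 and 453 ± 15.5 CPM, complex II 103 ± 24.0, 105 ± 23.4 and 88.1 ± 4.36, and complex III 95.5 ± 22.7, 105 ± 34.1 and 76.9 ± 1.21. Complex IV held 172 ± 19.1, 191 ± 37.6 and 165 ± 16.0 CPM, and complex V 400 ± 88.6, 452 ± 117 and 325 ± 38.5. In each of these sums the resilient mean was then the lowest of the PFC means.

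**Figure D3:**
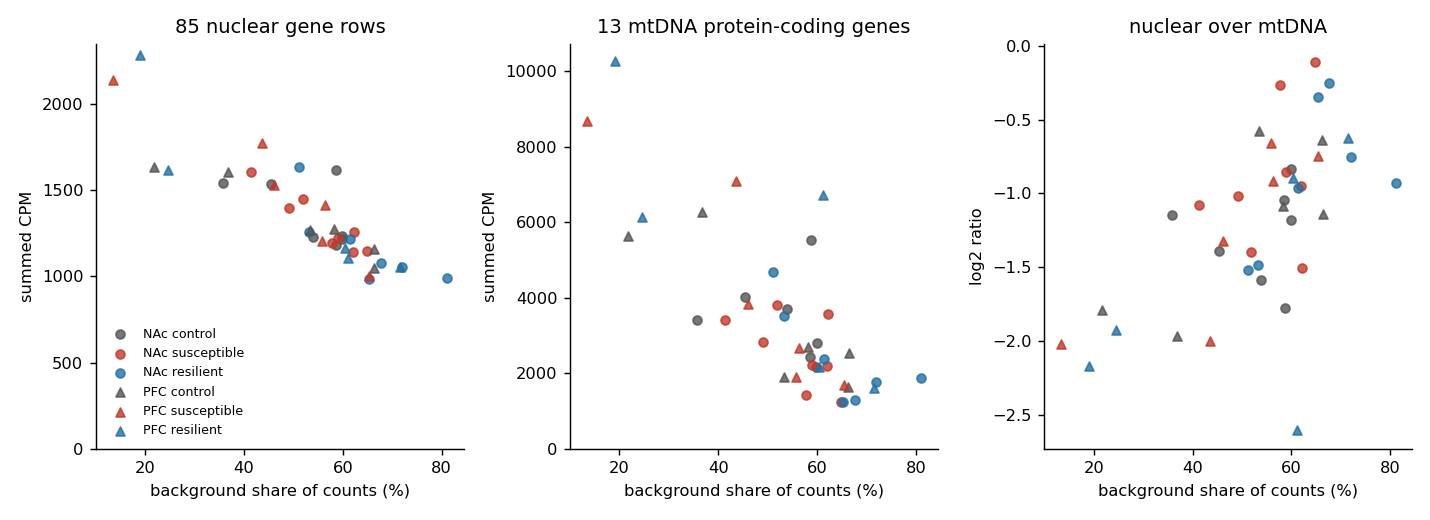
Summed CPM of the 85 member rows, summed CPM of the 13 mtDNA protein-coding genes, and the log2 ratio of the first to the second, each against the background share of counts of the library in percent; circles are NAc and triangles PFC. The member sum is highest, at 2281 and 2138 CPM, in libraries of 19.03% and 13.4% background, and the lowest ratio is PFC resilient replicate 3.

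Transcripts of mtDNA were more abundant than the nuclear members and varied more. The 13 mtDNA protein-coding genes summed to 3436 ± 1140 CPM in NAc control, 2586 ± 973 in susceptible and 2393 ± 1268 in resilient. In PFC they summed to 3447 ± 1996, 4308 ± 2914 and 5380 ± 3560 CPM. The 5 PFC resilient libraries held 6133, 10268, 6712, 1622 and 2165 CPM. Resilient replicate 3 of PFC stood apart, with 6712 CPM of mtDNA transcripts beside only 1103 CPM of nuclear members, at 61.1% background.

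The log2 ratio of nuclear member CPM to mtDNA CPM was below 0 in every library. It averaged -1.28 ± 0.32 in NAc control, -0.90 ± 0.49 in susceptible and -0.89 ± 0.50 in resilient. The corresponding values in PFC were -1.20 ± 0.58, -1.28 ± 0.61 and -1.64 ± 0.85. With background subtracted, NAc became -1.95 ± 0.32, -1.66 ± 0.43 and -2.05 ± 0.47, so the resilient mean was then the lowest of the NAc groups. PFC became -1.92 ± 0.36, -1.89 ± 0.35 and -2.38 ± 0.72. The ranges of the groups overlapped on both scales. Without the 4 libraries under 30% background, PFC mtDNA summed to 3008 ± 1879, 3432 ± 2206 and 3500 ± 2795 CPM, and the ratio without subtraction was -1.08 ± 0.56, -1.13 ± 0.55 and -1.37 ± 1.07.

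The mtDNA genes were not evenly covered. In NAc resilient libraries, mt-Co1 averaged 618, mt-Cytb 498 and mt-Nd1 280 scaled CPM, whereas mt-Co2 averaged 9.22, mt-Nd3 5.36, mt-Atp6 2.99, mt-Co3 2.49 and mt-Nd4l 1.19. A near-identical nuclear copy of part of mtDNA is known in the mouse genome, so values of these low genes are uncertain, and whether reads were shared with it was not tested.

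Within NAc, none of the 84 members tested differed between susceptible and control mice at an adjusted p under 0.05 in edgeR's quasi-likelihood test, as for 0% of all 35943 genes tested. At an unadjusted p under 0.05 the count was also 0, against 3.02% of all genes (1.47% higher and 1.55% lower). The median log2 difference was -0.10, with 26 members higher and 58 lower, and that of all genes tested was -0.00. Complex III members had a median of -0.20 and complex IV members of -0.02. The smallest p-values among lower members were those of Ndufs1, the largest core subunit gene of complex I, at -0.28 ± 0.17 (SE), and Uqcrc2 at -0.27 ± 0.18, both with an edgeR adjusted p of 1.00. The 12 mtDNA protein-coding genes tested had a median of -0.50, all 12 lower and 0 called. The median of the members was -0.00 without control replicate 6 and -0.16 without susceptible replicate 4.

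The comparison of resilient with control mice in NAc gave the lowest values for members within a region. The median log2 difference was -0.27, with 8 members higher and 76 lower, against 0.01 for all genes and -0.18 for the 10612 genes at least 2 times above background. No member was called at an adjusted p under 0.05, as for 0% of all genes. At an unadjusted p under 0.05, 9 of 84 were lower and 0 higher, against 4.31% lower and 1.83% higher among all genes (6.14% in all). They included Ndufb9, Uqcr11, Atp5h, Atp5j, Ndufc1, Sdhd, Ndufs1 and Cox7b. By complex the medians were -0.25 for I, -0.30 for II, -0.35 for III, -0.23 for IV and -0.28 for V.

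Ndufb9, an accessory subunit gene of complex I at chr15:58933756-58939488 in the GENCODE annotation of mm10, ranged from 1.07 to 2.59 FPKM in NAc control with a median of 1.22. In NAc susceptible it ranged from 0.931 to 1.67 FPKM with a median of 1.11, and in NAc resilient from 0.442 to 1.36 with a median of 0.976. The control and resilient ranges overlapped, and another gene covers 62.9% of this span. Its log2 difference, resilient against control, was -0.59 ± 0.23 (SE; edgeR adjusted p = 0.756).

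Uqcr11, a small subunit gene of complex III at chr10:80402997-80406830, ranged from 1.27 to 3.32 FPKM in NAc control with a median of 1.44. The susceptible libraries ranged from 1.17 to 2.09 FPKM with a median of 1.40, and the resilient ones from 0.675 to 1.87 with a median of 1.02. Its highest control value came from replicate 3, the library with the lowest total, and its highest resilient value from replicate 1. The log2 difference between resilient and control was -0.59 ± 0.23 (SE; edgeR adjusted p = 0.756).

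Atp5h, the stalk subunit d gene of complex V at chr11:115415689-115419962, ranged from 2.36 to 6.40 FPKM in NAc control with a median of 3.25. In NAc susceptible it ranged from 2.26 to 4.47 FPKM with a median of 3.11, and in NAc resilient from 0.890 to 4.82 with a median of 2.00. Its log2 difference between resilient and control was -0.75 ± 0.30 (SE; edgeR adjusted p = 0.756). Among the few members with a positive difference were the near-background Cox8c at 0.56 ± 0.38 and Cox8b at 0.37 ± 0.33, with edgeR adjusted p of 0.756 and 0.801.

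Members farther above background differed more in several comparisons, though not in all. For members at 4 or more, 2 to 4 and under 2 times background, PFC susceptible against resilient gave medians of 0.03, -0.03 and -0.02. PFC susceptible against control gave 0.40, 0.19 and 0.08, and NAc against PFC in resilient mice -0.87, -0.54 and -0.23. In NAc resilient against control the members farther above background also differed more. Those at 4 or more times background had a median log2 difference of -0.44, with 33 of 33 lower, those at 2 to 4 times -0.22, with 36 of 40 lower, and those under 2 times -0.08, with 7 of 11 lower. Marker levels of the sorted cells and of other cells are given beside this: the summed CPM of 10 astrocyte markers was 5302 ± 1698 in NAc control (range 3317 to 8376) and 3660 ± 2407 in resilient (1507 to 8593). That of 10 oligodendrocyte markers was 2696 ± 1394 (801 to 4453) and 1147 ± 563 (643 to 1994). Neuron markers summed to 928 ± 256 (672 to 1454) and 954 ± 135 (765 to 1164) CPM, microglia markers to 224 ± 58.6 (157 to 347) and 217 ± 21.4 (199 to 261), and oligodendrocyte precursor markers to 402 ± 29.4 (353 to 430.3) and 433 ± 40.0 (355 to 469). The ranges of control and resilient overlapped for each of these 5 lists. Endothelial markers summed to 507 ± 44.0 (452 to 563) and 431 ± 54.7 (347 to 491) CPM in the same order. Pericyte and smooth muscle markers summed to 378 ± 61.4 (263 to 473) and 311 ± 66.7 (249 to 410), and ependymal markers to 50.9 ± 15.8 and 46.2 ± 4.60. None of these markers was at 0 in a group, which background counts alone can give, and their part in the result was not tested. With the background share as a covariate the members' median was -0.04 and 0 passed at an unadjusted p under 0.05. Without resilient replicate 1 the median was -0.46 and 44 members passed at an unadjusted p under 0.05, and without control replicate 6 it was -0.17 with 2. Leaving out control replicates 2, 4 and 5 in turn gave 14, 5 and 15 such members, and leaving out resilient replicate 3, 4, 5 or 7 gave 4. The blocked fit gave 20, DESeq2 15 and limma-voom 25, each with 0 called. The share of all genes passing in each of these refits is not given here, so the counts cannot be read as particular to the members.

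Susceptible against resilient mice in NAc gave a median of 0.19, with 77 members higher and 7 lower, and 0 members called against 0% of all genes. Uqcr11 alone had an unadjusted p under 0.05, against 2.9% of all genes (1.11% higher and 1.79% lower), with a log2 difference of 0.49 ± 0.22 (SE; edgeR adjusted p = 0.998). Without resilient replicate 1 the median was 0.35 and 24 members had an unadjusted p under 0.05, and with the background share as a covariate the median was -0.04. The share of all genes passing without that library is not given here, so the 24 cannot be read as particular to the members. The 3 NAc comparisons share libraries and are not independent.

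In PFC the differences from control pointed upward and were not called. Susceptible against control gave a median log2 difference of 0.25, with 75 members higher and 9 lower, and resilient against control 0.27, with 79 higher and 5 lower. Both use the same 6 control libraries. No member was called in either, as for 0% of 32167 genes. At an unadjusted p under 0.05 the count was 0 in both, against 0.482% of all genes in susceptible mice (0.354% higher and 0.127% lower) and 0.597% in resilient mice (0.407% higher and 0.19% lower). Complex III again had the largest medians, 0.43 and 0.38.

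These PFC medians rested on single libraries. Without susceptible replicate 1, which had 13.4% background, the first became -0.07, and without resilient replicate 2, at 19.03%, the second became -0.08. Without all 4 libraries under 30% background they were 0.12 and -0.23. Atp5b showed the spread: PFC control ranged from 2.85 to 10.1 FPKM with a median of 5.15, and susceptible from 2.93 to 16.0 with a median of 7.91. The resilient replicates 1 to 5 held 10.5, 15.9, 6.13, 2.67 and 4.08 FPKM of Atp5b. The ranges of the 3 conditions overlapped, and the highest stressed values, 16.0 and 15.9 FPKM in the libraries of 13.4% and 19.03% background, lay above every control.

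The PFC members with the smallest p included the accessory subunit genes Ndufb6 at 0.39 ± 0.26 (SE) and Ndufs5 at 0.59 ± 0.44 in susceptible, and Ndufb11 at 0.87 ± 0.63 in resilient, each with an edgeR adjusted p of 1.00. Susceptible against resilient mice in PFC gave a median of -0.02, with 38 higher and 46 lower, 0 called against 0% of all genes, and 0 at an unadjusted p under 0.05 against 0.572% (0.339% higher and 0.233% lower). That median was -0.34 without susceptible replicate 1 and 0.34 without resilient replicate 2. Without the 4 libraries under 30% background it was 0.41, with 75 members higher and 10 lower, 0 called and 2 higher at an unadjusted p under 0.05. The share of all genes at that p in that fit is not given here. The summed astrocyte markers were 4433 ± 1616 CPM in PFC control (range 1978 to 6288), 7136 ± 3671 in susceptible (1447 to 10803) and 6895 ± 4950 in resilient (2189 to 15306). Means in the same order were 434, 599 and 541 for pericyte and smooth muscle markers and 495, 618 and 499 for endothelial ones. They were 1619, 1223 and 1481 for neuron, 1259, 1263 and 1390 for oligodendrocyte and 382, 376 and 364 for oligodendrocyte precursor markers. Microglia markers gave 244, 233 and 244, and ependymal ones 37.3, 34.7 and 32.5. The part of these lists in the result was not tested.

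The mtDNA genes in PFC had medians of 0.40 in susceptible and 0.80 in resilient against control, with 13 of 13 higher in both and 0 called. At an unadjusted p under 0.05 the count was 0 in susceptible mice, against 0.482% of all genes. In resilient mice 3 were higher, against 0.407% of all genes higher, namely mt-Atp8, mt-Atp6 and mt-Co3, all among the thinly covered genes. Without the 4 libraries under 30% background the resilient median was 0.19 with 0 at that p, and with background as a covariate 0.60 with 3. The susceptible median was 0.18 without those libraries and 0.10 with the covariate, with 0 at that p in both. The nuclear and mtDNA subunits of complex I had medians of 0.25 and 0.76 in resilient against control, those of complex III 0.38 and 0.76, those of complex IV 0.26 and 1.61, and those of complex V 0.31 and 3.21. In NAc resilient against control, complex I gave -0.25 for nuclear and -0.46 for mtDNA subunits, and complex III -0.35 and -0.57. Complex IV gave -0.23 and 0.06, and complex V -0.28 and 0.06, where the mtDNA side rests mostly on thinly covered genes and mt-Co1 was at -0.68 ± 0.36 (SE). The difference between the nuclear and mtDNA medians was not tested.

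Between regions, the median log2 difference of members, NAc minus PFC, was below 0 in all 3 conditions, and no member was called. In control mice it was -0.11, with 17 of 85 members higher and 68 lower, but 0.12 without PFC control replicate 2 and 0.11 by limma-voom. In susceptible mice it was -0.40 (5 higher, 80 lower) and in resilient mice -0.70 (5 higher, 80 lower). Adjusted p under 0.05 was reached by 0.00262% of 38171 genes in control, 0.00262% in susceptible and 0% in resilient mice. At an unadjusted p under 0.05 the members numbered 0 in control against 5.04% of all genes (1.08% higher and 3.96% lower). In susceptible mice 7 were lower and 0 higher, against 6.23% of all genes (4.42% lower and 1.81% higher). In resilient mice 35 were lower and 1 higher, against 14.6% of all genes (11% lower and 3.59% higher). In the resilient comparison genes at least 2 times above background had a median of -0.32.

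The resilient comparison gave the lowest p-values of the members. Ndufb9 was at -1.29 ± 0.37 (SE; edgeR adjusted p = 0.280), and its 5 PFC resilient replicates held 1.81, 3.71, 1.52, 0.961 and 1.38 FPKM, beside 0.442 to 1.36 in NAc resilient. Cox5b, a complex IV subunit gene at chr1:36691449-36693681, was at -1.43 ± 0.52, with 7.29, 8.72, 4.19, 1.76 and 3.80 FPKM in PFC resilient and 0.284 to 5.59, median 1.69, in NAc resilient. Uqcr11 was at -1.08 ± 0.37 and Atp5g1, a c-ring gene, at -0.84 ± 0.29. The values of the regions overlapped for each of these genes. Cox6a2 was the 1 member higher in NAc at an unadjusted p under 0.05, at 1.13 ± 0.52, and was listed at 0 in 3 of the 5 PFC resilient libraries.

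The median of the region difference changed with background and with single libraries. With the background share as a covariate, the median in resilient mice was 0.03 and 2 members had an unadjusted p under 0.05. Without the 4 PFC libraries under 30% background it was 0.09 and 0 members did. Without PFC resilient replicate 2 alone it was -0.30, again with 0. Leaving out PFC resilient replicate 1 or 5 gave 13 or 58 such members, NAc resilient replicate 1 gave 62, and NAc resilient replicates 3, 4 and 5 gave 23, 20 and 19. Without PFC resilient replicate 4 the count was 66 and the smallest edgeR adjusted p 0.0510, the lowest of any leave-one-out fit of this comparison. In control mice the median was 0.08 with the covariate and 0.10 without the 4 libraries. In susceptible mice it was -0.10 without the 4 libraries, -0.12 without PFC susceptible replicate 1 and -0.06 with the covariate, each with 0 such members. Leaving out PFC susceptible replicates 2, 3, 4 and 5 in turn gave 3, 33, 12 and 21, and NAc susceptible replicates 4, 5, 7 and 8 gave 19, 4, 4 and 3. The share of all genes passing in each of these refits between regions is not given here. The counts therefore cannot be read as particular to the members. Astrocyte markers summed to 6895 ± 4950 CPM in PFC resilient and 3660 ± 2407 in NAc resilient. Neuron markers summed to 1481 ± 709 CPM in PFC resilient (range 1008 to 2708) and 954 ± 135 in NAc resilient (765 to 1164). Pericyte and smooth muscle markers summed to 541 ± 290 and 311 ± 66.7 in the same order. Markers of oligodendrocyte precursors (364 and 433) and ependymal cells (32.5 and 46.2) were higher in NAc. The part of these markers was not tested.

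No member was called in the test of the difference between regions in a stress effect (the interaction). For susceptible against control, NAc minus PFC, the median was -0.32 (8 higher, 77 lower), with 0 members called against 0% of all genes and 0 at an unadjusted p under 0.05 against 1.38% (0.786% higher and 0.597% lower). For resilient against control it was -0.58 (6 higher, 79 lower), with 0 called against 0%, and 2 at an unadjusted p under 0.05 against 3.45% (1.36% higher and 2.1% lower). Ndufb9 was at -1.20 ± 0.51 (SE; edgeR adjusted p = 0.849). Without the 4 PFC libraries under 30% background, the resilient interaction had a median of 0.00. Without PFC resilient replicate 2 alone it was -0.23, and without PFC control replicate 2 it was -0.83 with 17 members at an unadjusted p under 0.05. The share of all genes at that p without PFC control replicate 2 is not given here. The susceptible interaction had a median of -0.19 without the 4 libraries and -0.04 without PFC susceptible replicate 1.

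The mtDNA protein-coding genes were also compared between regions. Their median, NAc minus PFC, was -0.16 in control, -1.08 in susceptible and -1.54 in resilient mice, with 13 of 13 lower and 0 called in each. At an unadjusted p under 0.05, 0, 8 and 12 were lower, against 3.96%, 4.42% and 11% of all genes lower in the same order. In resilient mice the median was -0.52 with background as a covariate and -0.63 without the 4 libraries under 30% background, each with 13 of 13 lower and 3 at that p. The share of all genes at that p in either fit is not given here. In susceptible mice it was -0.29 and -0.54, with 0 at that p in both.

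**Figure D4:**
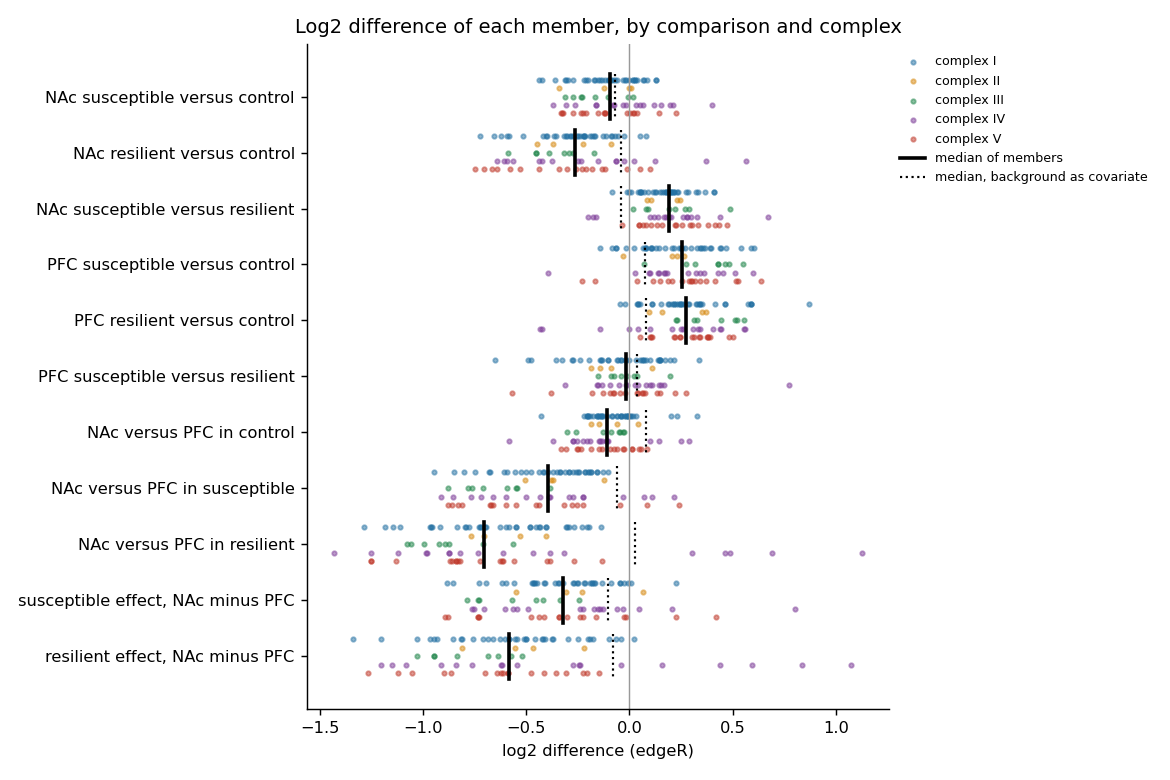
Log2 difference (edgeR) of each member in the 11 comparisons, colored by complex; the solid bar is the median of members and the dotted bar the median with background share as a covariate. In the NAc versus PFC comparison of resilient mice the median is -0.70, and 0.03 with the covariate.

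Other genes of respiration were examined from lists. In NAc resilient against control, the 5 subunits and carriers outside the symbol rule had a median of -0.38, with Cycs, which encodes cytochrome c, at -0.46 ± 0.26 (SE; edgeR adjusted p = 0.756). The 22 genes of the tricarboxylic acid cycle and pyruvate entry had a median of -0.29, with 21 lower, 0 called against 0% of all genes, and 3 (13.6%) lower at an unadjusted p under 0.05, against 4.31% of all genes. With background as a covariate their median was -0.06 with 0 at that p. Among them Idh3b, a subunit of isocitrate dehydrogenase, was at -0.64 ± 0.28 and Idh3a at -0.39 ± 0.17. The 50 assembly factors were nearer 0 at a median of -0.06, with 15 higher and 35 lower, and 4 (8%) lower at an unadjusted p under 0.05 against 4.31% of all genes. With background as a covariate the median of these 50 was 0.01, with 27 higher and 23 lower, and 2 lower at that p. Cox17, the copper chaperone of complex IV, was the first of the assembly factors in the main test at -0.69 ± 0.19 (SE; edgeR adjusted p = 0.756).

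Regulators of respiratory genes, 14 in number, had a median of -0.13 in the same comparison. Gabpa, the DNA-binding subunit of GABP, was at -0.36 ± 0.17 (SE) and the nuclear receptor gene Esrra at -0.33 ± 0.17, both with an edgeR adjusted p of 0.756. The 15 genes of mtDNA transcription and replication had a median of -0.11, with 3 higher and 12 lower and 0 at an unadjusted p under 0.05. Between regions in resilient mice, the cycle genes had a median of -0.60 with 15 of 22 (68.2%) lower at an unadjusted p under 0.05 against 11% of all genes, and Mdh1, cytosolic malate dehydrogenase, was at -1.25 ± 0.40. Their median was 0.00 with background as a covariate and 0.10 without the 4 PFC libraries under 30% background, with 0 lower at that p in both. Assembly factors had a median of -0.23 there, with 9 of 50 (18%) lower at an unadjusted p under 0.05 against 11% of all genes, and Ndufaf4 was at -1.17 ± 0.37. The median of the assembly factors was 0.02 with background as a covariate, with 0 lower at that p. Without the 4 PFC libraries under 30% background it was 0.09, with 35 higher and 15 lower, and again 0 lower at that p. No gene of these lists was called in that comparison, where 0% of all genes were.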

How the data were processed

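RNA from ACSA-2 sorted astrocytes was made into libraries with a stranded total RNA kit from 500 pg input, per the labels' protocols. The authors deposited raw counts per gene and FPKM values; per the submitters' processing notes, featureCounts and mm10 were used. Aligner, annotation and strandedness: not given in the sources used here. Values of FPKM, as the authors deposited them, divide counts by whole gene span and by the library's counts in genes. Of 55401 gene IDs, 55141 matched GENCODE M21, and all 54229 spans compared were equal within a relative 1e-06.

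Counts were tested with edgeR 4.0.16 (R 4.3.3): TMM scaling, filterByExpr by group, robust quasi-likelihood, Benjamini-Hochberg adjustment over all genes tested and a threshold of 0.05. NAc and PFC were fitted apart, and regions and interactions on all 39 libraries. Alternatives used DESeq2 1.42.0, limma 3.58.1 on log2(FPKM + 0.5), other filters and scalings, background as a covariate and left-out libraries. Scripts were tested on simulated data. Complex sums are CPM of library totals and carry no test; single-gene levels in FPKM are compared per length.

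Named members were the 3 highest per complex, all of complex II, isoform pairs, and per comparison those with the smallest p in each direction; Cox7b, Ndufa1, Ndufs4, the mtDNA genes, members named for overlap, pseudogenes or motifs, and the printed promoters were chosen after their values were seen. The members and lists were chosen with earlier results of these data known. Same-numbered PFC libraries deviated together (lowest correlation 0.177, all pairs above 0.1), so replicate numbers pair PFC libraries by this check and not by the labels. In NAc they did not. The same-numbered PFC library was the best match in only 2 of 6 cases for control with susceptible. It was so in 1 of 5 for control with resilient and 2 of 5 for susceptible with resilient. The main PFC tests left this pairing out, and the replicate block was run only as an alternative. P-values measure the spread between libraries, treated as separate mice although consecutive numbers may share a mouse. The number of libraries and their totals of 941450 to 37339379 counts limit the precision. With consecutive sample numbers as a block, 14 members had an unadjusted edgeR p under 0.05 between regions in susceptible mice, and 0 were called. The share of all genes at that p in the blocked fit is not given here. No library was left out of the main tests. One member is not reported here by name.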

Additional observations from a re-analysis of the deposited data

Results flagged for a closer look

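Single libraries stood apart from the rest of their group in 28 of 234 groups of values examined, each of 5 to 8 libraries. Chance alone would give about 1 in 20, or 11.7, if these groups of values were independent. They were not, since the sums and single genes come from the same libraries. In each of the 28, the gap to the nearest library was large against the group's range. Gene values are CPM scaled by TMM and sums are CPM of library totals.

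Of these, 13 came from NAc resilient replicate 1, at 51.1% background. Its member sum was 1631 CPM (next 1255) and its complex II sum 144 CPM (next 101). It was highest for Ndufb10 at 18.3 (next 9.28), Ndufb11 at 12.7 (5.05), Sdha at 84.2 (46.7) and Uqcrq at 11.3 (5.66). The same held in complex IV for Cox8a at 22.5 (9.81), Cox6a1 at 11.0 (5.51) and Cox6b2 at 3.75 (1.44). In complex V it held for Atp5a1 at 85.8 (41.2), Atp5b at 73.0 (33.2), Atp5g2 at 15.3 (10.5) and Atp5g3 at 12.1 (7.15).

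NAc control replicate 3, the library with the lowest total, was highest for Atp5k at 27.9 (next 8.37), Cox4i1 at 20.4 (11.6) and Ndufa4l2 at 10.7 (4.62), and lowest for Sdhc at 8.57 (19.5). NAc resilient replicate 7 was highest for Cox8b at 3.08 (1.81) and lowest for Atp5g1 at 0.923 (4.90). NAc susceptible replicate 7 was highest for Ndufa4l2 at 6.08 (3.44).

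In PFC, susceptible replicate 1 was highest for Ndufv1 at 45.1 (22.1) and Sdhc at 40.2 (23.7), and resilient replicate 2 for Uqcr10 at 12.7 (5.22) and Cox7a2 at 21.02 (7.81). Control replicate 2 was highest for Cox7a2l at 28.0 (17.2) and Atp5g1 at 10.2 (6.60). Susceptible replicate 3 was lowest for Cox4i2 at 10.7 (13.1), and Cox7a1 was at 0 in susceptible replicate 6 (next 1.87).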

How the results depend on the processing

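No member was called under any of the 146 other settings or 312 leave-one-out fits over the 11 comparisons. The replicate block changed no call: with it the median log2 difference of members was -0.30 in NAc resilient against control and -0.54 between regions in resilient mice. Over the alternatives other than leave-one-out, the block among them, PFC medians ran from 0.08 to 0.27 in susceptible against control. They ran from -0.23 to 0.37 in resilient against control and from -0.08 to 0.41 in susceptible against resilient. The fit without libraries under 30% background, and both background alternatives for the other gene lists, were chosen after seeing the data. Between regions in resilient mice the median was 0.0285 with background as a covariate, -0.0506 with the replicate block and that covariate, and 0.0936 without libraries under 30% background, and the resilient interaction was 0.00233 without them. The cause was not tested.

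With background subtracted the log2 ratio to mtDNA was -1.95, -1.66 and -2.05 in NAc control, susceptible and resilient, and -1.92 and -1.89 in PFC control and susceptible. Using the mean of log2(CPM + 0.5), it was -2.01, -1.57 and -1.80 in NAc and -1.90, -2.05 and -2.59 in PFC. Background-subtracted sums of complex I were 349.5, 312.6 and 239.1 CPM in NAc and 337.0, 404.8 and 383.8 in PFC. Those of complex II were 81.0, 72.5 and 57.4 in NAc and 78.7 in PFC control, and of complex III 74.6, 64.8, 49.8 and 76.4. Complex IV gave 95.8, 91.3 and 68.1, then 99.4, 130.2 and 117.7 in PFC, and complex V 276.9, 246.3 and 166.5, then 276.7 in PFC control. Members times the geometric mean of CPM + 0.5 gave 408.8, 402.5, 358.4, 410.0 and 439.2 for complex I (all but PFC resilient) and 94.8 for complex II in NAc control. For complex IV it gave 107.5, 114.7, 98.8, 113.7, 117.7 and 114.2, and for complex V 277.6, 274.1, 232.9, 280.7 and 315.3 (all but PFC resilient).

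Of single log2 differences, 24 changed sign. With background as a covariate, Cox7b2 was -0.13 in NAc resilient against control and 0.019 in NAc susceptible against resilient. With the replicate block added these were -0.11 and 0.032, Cox8c was 0.26 in the latter, and Cox7b2 was -0.063 between regions in resilient mice. By limma-voom, Atp5e was 0.076 in PFC susceptible against control, Ndufb11 -0.35 and Ndufa11 0.030 in PFC resilient against control, and Cox7b2 -0.15 and Ndufc1 0.017 in PFC susceptible against resilient. Between regions, that tool gave Cox7b2 -0.037 and Atp5e 0.12 in control mice, Cox7b2 -0.0041 in resilient mice, and Atp5e -0.021 in the susceptible interaction. Without libraries under 30% background, Ndufb11 was -0.87, Ndufb9 -0.046 and Cox8c 0.12 in PFC resilient against control, Ndufc1 0.068 in PFC susceptible against resilient, and Cox8c -0.0030 between regions in susceptible mice. Without the 3 lowest totals, Cox7b2 was -0.0075 and Ndufa8 -0.038 in PFC susceptible against resilient. With consecutive sample numbers as a block, Atp5e was -0.043 between regions in susceptible mice and Cox6b2 -0.0050 in resilient mice. None of these genes was called before or after. Leaving out 1 library at a time changed the sign of 17 further values of 10 results. The ranges over these fits were, in NAc resilient against control, -0.059 to 0.29 for Cox7b2, and in PFC susceptible against control -0.62 to 0.067 for Ndufc1. In PFC resilient against control they were -0.36 to 0.14 for Cox8b and -0.25 to 0.25 for Ndufa11. In PFC susceptible against resilient they were -0.0011 to 0.90 for Ndufs5, -0.060 to 0.26 for Cox7b2 and -0.96 to 0.14 for Ndufc1. Between regions they were -0.019 to 0.20 for Cox7b2 in control mice, and -0.057 to 0.22 for Atp5e and -0.15 to 0.48 for Cox6b2 in susceptible mice. Library totals and background cover limit what these counts can show for genes near background.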
